A study of Mus musculus with 2 samples.

Results

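Transient receptor potential (TRP) channels are cation channels of the cell membrane. In sensory neurons several of them open in response to heat, cold, plant irritants, acid or reactive chemicals, and the influx of cations depolarises the nerve ending. In the vagus nerve they are best known for responses to irritants and temperature in the airways and the gut, while other family members serve calcium and magnesium handling in many cell types. The genes described here were the rows of the count table whose symbol was Trpv1, Trpa1, Trpm8, Trpm3, Trpv2, Trpc5, Trpm2, Trpm7 or Trpc1, 9 of 32286 features. They were chosen by name and not by their values, and all 9 had UMIs in both libraries.

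Nuclei of the vagus nerve ganglia, the seat of the cell bodies of the vagal sensory neurons, were profiled by single-nucleus RNA sequencing in 1 female and 1 male library. The female library came from 14 pooled ganglia of 7 mice and the male library from 16 pooled ganglia of 8 mice. All mice were C57BL/6J carrying Rosa26-floxed-STOP-Cas9-eGFP, were bought at 8 to 9 weeks of age and ate standard chow. All had received AAVrg-Cre, a retrograde virus that delivers Cre recombinase, in the liver 4 weeks earlier, so both groups shared genotype and virus. With 1 library of each sex, sex and library cannot be told apart, no test between the sexes was possible, and each library is given with exact Poisson intervals of its counts, which cover counting error only. In sums over a class, fewer cells that use a gene and less RNA per cell cannot be told apart.

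The table held 3791 female nuclei with 17435300 unique molecular identifiers (UMIs, each a captured RNA molecule) and 4923 male nuclei with 27529730 UMIs. Nuclei held a median of 2381 and 2658 UMIs, and the libraries shared 8 barcodes. Cerebellar granule cell markers, 7 of 7 past 1.5-fold, named a class of 402 nuclei of which 380 were female. Unnamed cluster 15 had 6 of 7 pituitary markers past 1.5-fold. Both groups went against the labelled tissue and are kept out of the neuron-like nuclei, but some neuron-like sub-clusters described below also held pituitary transcripts. Nuclei were grouped without the rows of the TRP genes, and groups were named from marker genes. The 2273 neuron-like nuclei (17.7% of female and 32.5% of male nuclei) had a median of 7224 UMIs. Macrophage-like nuclei, 136 in each library with a median of 1799.5 UMIs, served as the background, since free RNA enters all droplets. For 8 neuronal genes that macrophages should lack, the macrophage-like level was a median of 59.8% of the neuron-like level, 40.6% in the female library, with 78.9% in the male. All 8 were among the 11 markers used to name the neuron-like clusters. A level below is UMIs of the gene per 10000 UMIs of all genes in the group.

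Of the 9 genes, Trpm8 and Trpc1 were at least 2-fold higher in neuron-like than in macrophage-like nuclei in both libraries, with 0.5 UMIs added to each sum. Of 17742 genes with enough UMIs, 9.48% met the same limit, and the median log2 ratio was 0.93 over the 9 genes and −0.21 over all genes compared. The count was 1 (Trpm8) after thinning each nucleus to 1000 UMIs and 5 (Trpv1, Trpa1, Trpm8, Trpc5 and Trpc1) among nuclei with over 2000 UMIs. The share of all genes at these settings is not given here, so the change in count is not shown to be particular to the members. Without the added 0.5 UMIs, Trpc5 also passed 2-fold in both libraries. Its levels were 0.119 against 0 in the female library and 0.082 against 0.035 in the male, on 0 and 1 macrophage-like UMIs. Trpm2 alone of the 9 was at least 2-fold lower in both libraries, as were 16.0% of the genes compared. Of the 8 neuronal genes that gauge free RNA, 3 (Snap25, Scn9a and Elavl4) were at least 2-fold higher in both libraries. The highest macrophage-like level among the 8 was 136% of the neuron-like level. Missing the limit thus does not show that neurons lack a gene. Between genes, levels were compared per 100 kb of gene span, because reads from introns were counted. Whether UMIs grow with span in these libraries was not tested, and no background was taken off, so the order holds for this scale only. On this scale the neuron-like level was highest for Trpv1, at 3.60, followed by Trpv2 at 2.19, Trpc1 at 1.90, Trpm7 at 1.56, Trpa1 at 1.21, Trpm3 at 0.949, Trpm8 at 0.704, Trpm2 at 0.181 and Trpc5 at 0.030.

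**Figure D1:**
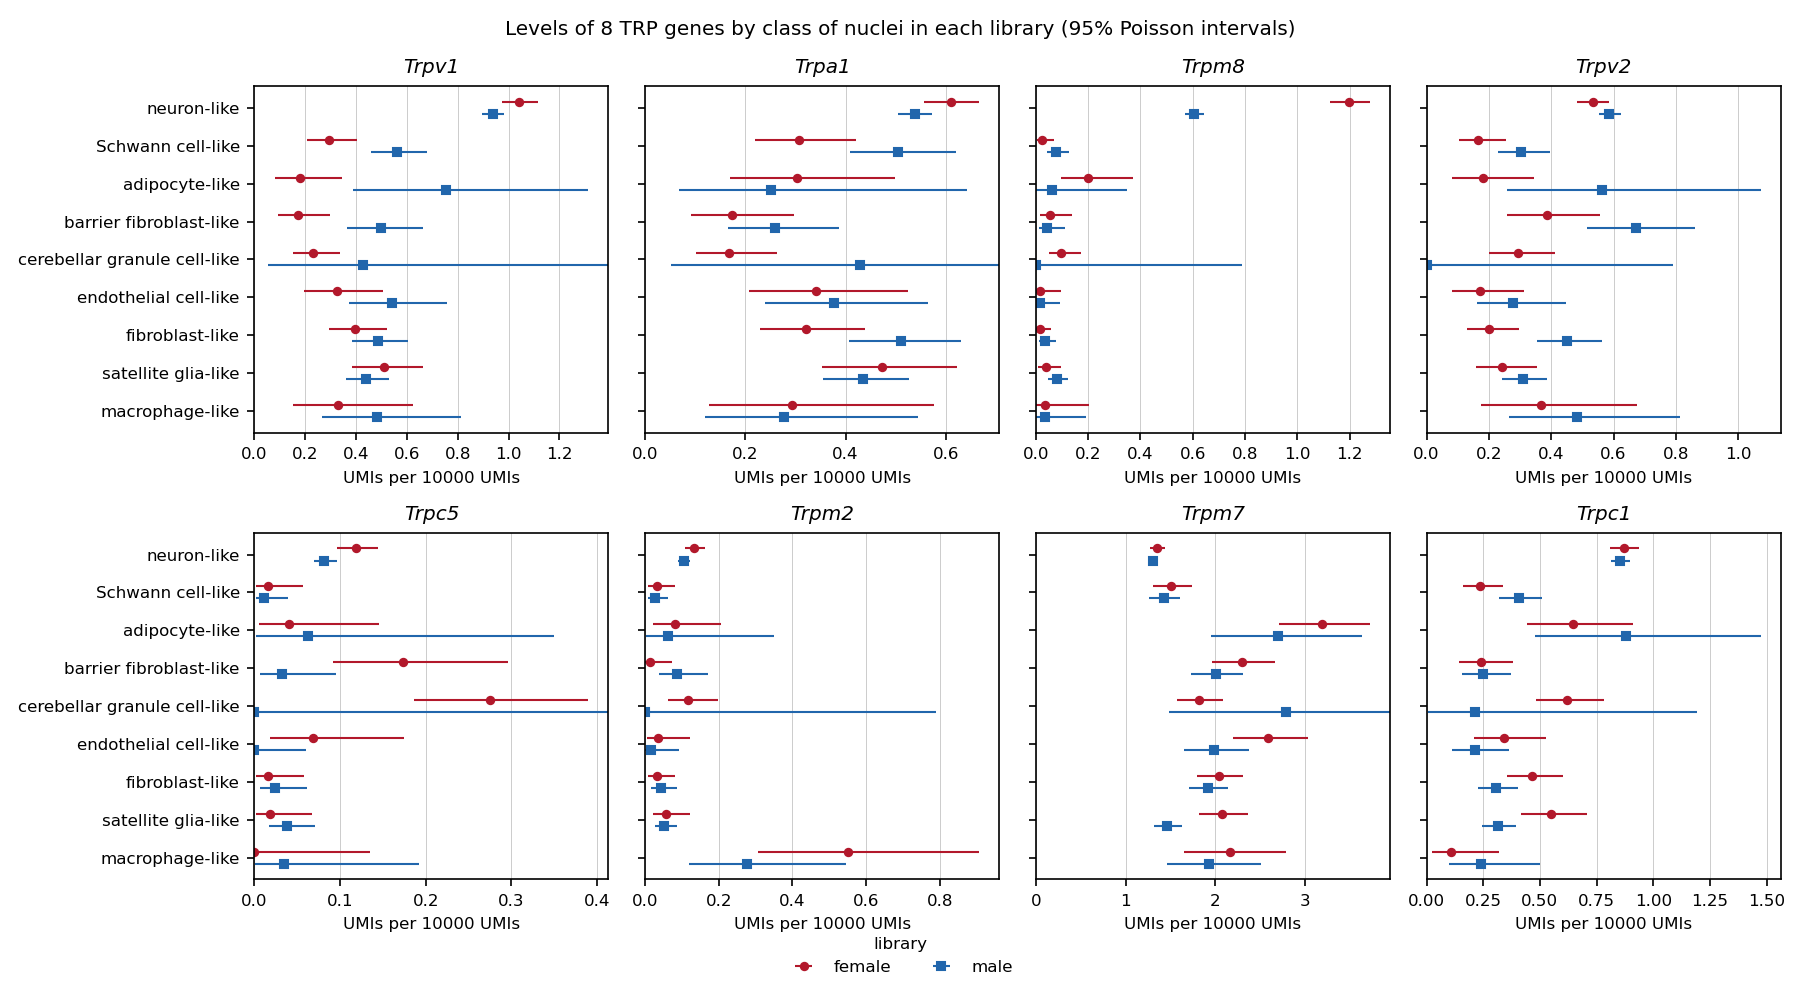
Level of 8 of the 9 genes, in UMIs per 10000 UMIs on linear axes, in 9 named classes of nuclei, with red circles for the female library, blue squares for the male library and bars for 95% Poisson intervals. Trpm8 is above the other classes in neuron-like nuclei, at 1.20 and 0.606, Trpm2 is highest in macrophage-like nuclei, at 0.550 and 0.276, and some bars of the 22 male cerebellar granule cell-like nuclei run past the axis.

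Trpv1 (ENSMUSG00000005952, chr11:73234292-73261242, plus strand) encodes the receptor for capsaicin, noxious heat and protons. Its level in neuron-like nuclei was 1.04 in the female library, with 0.938 in the male. In macrophage-like nuclei it was 0.330 and 0.484, on 9 and 14 UMIs. Both neuron-like values were above both macrophage-like values, with a log2 ratio of 1.25 over both libraries (95% interval 0.66 to 1.91). The ratio was 1.66 in the female library, with 0.96 in the male, and the latter did not reach 2-fold. Without a sympathetic-like sub-cluster described below, of 6 female and 112 male nuclei, Trpv1 passed 2-fold in both libraries. That alternative was chosen after the data were seen.

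The other 8 classes ranged from 0.238 in cerebellar granule cell-like to 0.461 in satellite glia-like nuclei, and neighbours in that order overlapped in their intervals. Single clusters within them were higher, at 0.654 in Schwann cell-like cluster 5 and 0.657 in fibroblast-like cluster 9, below the neuron-like 0.970. In satellite glia-like cluster 4 the level was 1.13 in 53 female nuclei, on 28 UMIs, and 0.439 in 515 male nuclei. Neuron-like nuclei held 76.9% of all Trpv1 UMIs and 58.6% of the UMIs of all genes. A Trpv1 UMI was seen in 35.5% of neuron-like nuclei, and in 9.38% after thinning each nucleus to 1000 UMIs. The macrophage-like shares were 7.72% and 5.17% at median depths of 1799.5 against 7224 UMIs, so the shares were closer at equal depth. Among nuclei with over 2000 UMIs, the level was 0.971 in 1995 neuron-like nuclei and 0.168 in 100 macrophage-like nuclei, on 5 UMIs.

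The neuron-like nuclei fell into 12 sub-clusters, again formed without the TRP genes. Markers of the jugular ganglion, whose neurons arise from neural crest, named sub-clusters 5, 8, 10, 11 and 12, with 563 nuclei. Markers of the nodose ganglion, whose neurons arise from placode, named sub-clusters 2, 4 and 6, with 695 nuclei. Sub-cluster 9, with 118 nuclei of which 6 were female, was sympathetic-like, and sub-clusters 1, 3 and 7 had no name. These 897 unnamed nuclei were in neither the jugular-like nor the nodose-like sums, although 3 of 5 nodose markers passed 1.5-fold in each sub-cluster. Sub-clusters 1 and 3 had prolactin, growth hormone or haemoglobin transcripts among their leading genes. Their 7 pituitary markers summed to 1.45 and 1.65 UMIs per 10000, against 0.191 to 0.495 in the named sub-clusters. Both sub-clusters are in the neuron-like sums, and the part of this in those levels was not tested. In sub-cluster 7 the 9 Schwann cell markers summed to 19.3 and the 8 satellite glia markers to 14.5 UMIs per 10000, against 3.30 to 6.42 and 1.92 to 4.03 in the named sub-clusters, with none of these markers at 0. The part of this in the TRP levels of sub-cluster 7 was not tested.

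**Figure D2:**
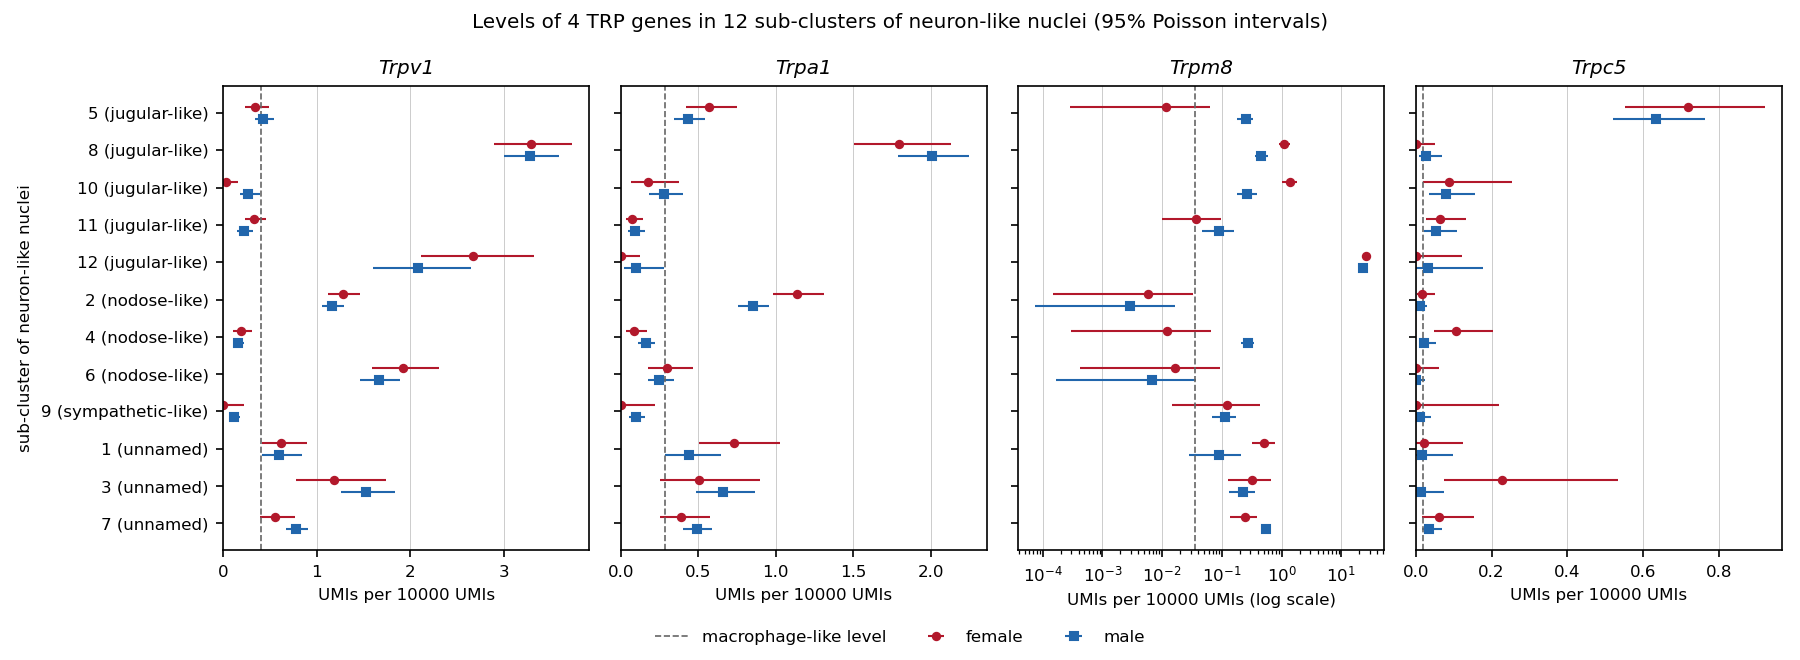
Level of Trpv1, Trpa1, Trpm8 and Trpc5, in UMIs per 10000 UMIs, in the 12 sub-clusters of neuron-like nuclei, with red circles for the female library, blue squares for the male library, bars for 95% Poisson intervals and a dashed line at the macrophage-like level of both libraries. The Trpm8 axis is logarithmic, and the highest sub-cluster in both libraries is 8 for Trpv1 and Trpa1, 12 for Trpm8, at 25.8 and 23.5, and 5 for Trpc5.

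Trpv1 was unevenly spread over the sub-clusters. It was highest in jugular-like sub-cluster 8, at 3.29 in the female library, with 3.28 in the male, which is 8.03 times the macrophage-like level. These 132 nuclei, led by Gfra3, Tac1 and Calca, held 22.2% of all Trpv1 UMIs. Next came jugular-like sub-cluster 12 at 2.67 and 2.08, then nodose-like sub-cluster 6 at 1.92 and 1.67.

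Nodose-like sub-cluster 2, with Vip among its leading genes, had 1.28 and 1.17, and the unnamed sub-cluster 3 had 1.45 over both libraries. Each of sub-clusters 8, 12, 6 and 2 was above the macrophage-like level in both libraries. Levels in nodose-like sub-cluster 4 (0.166), sympathetic-like sub-cluster 9 (0.109) and jugular-like sub-cluster 10 (0.207) lay under the macrophage-like 0.409, and their intervals did not reach it. Trpv1 was thus high in some sub-clusters and low in others within both the jugular-like and the nodose-like nuclei.

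Summed over all jugular-like against all nodose-like nuclei, Trpv1 differed little. The levels were 1.17 and 1.11 in the female library and 1.17 and 0.961 in the male library. The log2 ratio was 0.07 (−0.14 to 0.29) in the female library, with 0.29 (0.13 to 0.44) in the male, so the female interval included 0. The value over both libraries, 0.22, was 0.38 at a finer clustering and 0.11 without sub-cluster 12.

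Trpa1 (ENSMUSG00000032769, chr1:14872648-14918862, minus strand) encodes the receptor for mustard oil, aldehydes and other reactive irritants, and is known to share many sensory neurons with Trpv1. In neuron-like nuclei it stood at 0.610 in the female library, with 0.538 in the male, and in macrophage-like nuclei at 0.293 and 0.276 on 8 UMIs each. The log2 ratio was 0.98 (0.27 to 1.79) and its male interval included 0. Satellite glia-like (0.446), fibroblast-like (0.430) and Schwann cell-like nuclei (0.425) were nearer to the neuron-like level than macrophage-like nuclei were. Single clusters of these classes were above the neuron-like 0.560 over both libraries. They were Schwann cell-like cluster 5 (0.679, on 83 UMIs), fibroblast-like cluster 18 (0.605, on 42) and satellite glia-like cluster 4 (0.566, on 103). Trpa1 UMIs were in 23.6% of neuron-like and 5.88% of macrophage-like nuclei, and in 4.93% and 3.69% after thinning, so at equal depth the shares were close.

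Within the named sub-clusters of neurons the gene was more restricted. Sub-cluster 8 had 1.80 and 2.01 in the female and male library, 6.82 times the macrophage-like level, and nodose-like sub-cluster 2 had 1.14 and 0.851. No other named sub-cluster was above 0.481, but unnamed sub-clusters 3 and 1 had 0.623 and 0.570 over both libraries. Sub-cluster 12, in which Trpv1 was high, had 3 Trpa1 UMIs and a level of 0.049, below the macrophage-like 0.284.

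In sub-cluster 8, 122 of 132 nuclei had a Trpv1 UMI, 66 had a Trpa1 UMI and 63 had both. A Trpa1 UMI was in 51.6% of the nuclei with Trpv1 and in 30% of the 10 without it. The median depth was 14064 UMIs in nuclei with Trpv1 and 7451 in the 10 without it. With so few nuclei without Trpv1, and these shallower, the count with both does not show that the genes go together. Calca, which encodes the neuropeptide CGRP and shaped this sub-cluster, was seen in all 132, at a level of 19.8 against 1.08 to 6.28 in the other sub-clusters. Its macrophage-like level, given below, was above that of all neuron-like nuclei, so its being seen in every nucleus says little by itself. Pirt, which encodes a membrane protein that binds Trpv1, was at 4.68, and Tmem100, which encodes an adaptor between Trpv1 and Trpa1, was at 1.60, each the highest of the 12 sub-clusters.

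Over jugular-like against nodose-like nuclei, the libraries differed in direction for Trpa1. The female levels were 0.592 and 0.697, with a log2 ratio of −0.24 (−0.52 to 0.05). The male levels were 0.716 and 0.512, with a log2 ratio of 0.48 (0.28 to 0.69). The mean over nuclei, in which each nucleus counts alike, gave −0.06 over both libraries, so neither ganglion type was shown to have more Trpa1.

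Trpm8 (ENSMUSG00000036251, chr1:88277661-88389293, plus strand) encodes the cold and menthol receptor. It was the gene most restricted to neuron-like nuclei, which held 95.2% of its 2176 UMIs. The level there was 1.20 in the female library, with 0.606 in the male. In macrophage-like nuclei it was 0.037 and 0.035, on 1 UMI each, and the log2 ratio was 4.47 (2.61 to 7.51). The remaining classes ranged from 0.017 to 0.168 and neighbouring classes overlapped.

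Jugular-like sub-cluster 12 held 1508 of the UMIs, 69.3% of the total in 0.70% of all nuclei. Its level was 25.8 in the 26 female nuclei and 23.5 in the 35 male nuclei, so both libraries had it at a like level. A Trpm8 UMI was present in 83.6% of its nuclei, and in 67.2% after thinning, against 0.735% and 0% of macrophage-like nuclei. Its median depth was 7747 UMIs, against 1799.5 in macrophage-like nuclei. The median nucleus had 15 Trpm8 UMIs and the highest 128, and 49 of the 61 nuclei had at least 5.

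The other neuron-like nuclei had little Trpm8, and that little was concentrated. Of 2212 nuclei, 24 had at least 5 UMIs and held 424 of the 564 UMIs. In nodose-like sub-cluster 4, 1 male nucleus held 54 of 60 UMIs. Nodose-like sub-clusters 2 and 6 had 2 UMIs each, in 327 and 150 nuclei.

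The clustering of all nuclei was also run with 20 principal components, with a finer resolution or with genes scaled within each library. The sub-cluster highest in Trpm8 then had 60 to 64 nuclei, of which 58 to 60 were those of sub-cluster 12. These changes altered which nuclei were neuron-like, while the settings of the sub-clustering stayed the same, so its dependence on those settings was not tested. Besides Trpm8, Hjurp, Foxp2, Gsg1l and Gpr26 led sub-cluster 12. Hjurp, on the opposite strand and 0.027 kb before the start of Trpm8, was at 11.9 there and 0.516 in all other nuclei, and it was among the genes used to form the sub-clusters. The rule by which reads near the border of these genes were counted is not given in the sources here, so the split of their counts is uncertain. When 11 genes beside or within the members, Hjurp among them, were also left out of the clusters and sub-clusters, the sub-cluster highest in Trpm8 held the same 61 nuclei.

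Trpc5, also known as a cold-responsive channel of sensory endings, followed another sub-cluster. The gene (ENSMUSG00000041710, chrX:144381671-144688180, minus strand) had 424 UMIs in all, of which 172 were in jugular-like sub-cluster 5, with Grik1 and Mrgprd among its leading genes. Its level there was 0.719 in the female library, with 0.633 in the male, against 0.018 in macrophage-like nuclei on 1 UMI. With those 11 genes left out too, the sub-cluster highest in Trpc5 had 169 nuclei, 166 of them from sub-cluster 5, and levels of 0.753 and 0.650. No other named sub-cluster was above 0.081, and sub-cluster 6 had 0 of 2103629 UMIs, which allows a level of up to 0.014.

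Outside the neurons, Trpc5 was at 0.264 in cerebellar granule cell-like nuclei, with all 31 UMIs in the female library, and at 0.406 and 0.464 in unnamed cluster 15. Cluster 15 had Pou1f1 and Pomc, pituitary genes, among its leading genes. The level of cluster 15 was nearer to that of sub-cluster 5 than the level of any named class was.

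For jugular-like against nodose-like nuclei, Trpm8 and Trpc5 of the 9 genes passed 2-fold in both libraries, both higher in jugular-like nuclei, and 11.0% of 16602 genes did so in either direction. For Trpm8 the levels were 2.72 against 0.009 in the female library and 1.51 against 0.086 in the male library. For Trpc5 they were 0.218 against 0.038 and 0.220 against 0.013. The log2 ratio was 4.97 (4.61 to 5.35) for Trpm8 and 3.42 (2.77 to 4.15) for Trpc5. For each of these genes most of the jugular-like UMIs were those of a single sub-cluster.

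Trpm3 (ENSMUSG00000052387, chr19:22139046-22995410, plus strand) encodes a channel opened by heat and by the neurosteroid pregnenolone sulfate. The gene spans 856.365 kb and holds the genes of miR-204-5p and miR-204-3p, the mature strands of a microRNA. The small RNAs themselves were not measured here. They are shown because the transcript counted over this locus is also the host of the hairpin. The sequences are those of RefSeq on GRCm38.p6, plus strand, at chr19:22750610-22750631 and chr19:22750649-22750669, and capitals mark the seed, bases 2 to 8.
mmu-miR-204-5p: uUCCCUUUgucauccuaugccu
mmu-miR-204-3p: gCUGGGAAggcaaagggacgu

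Trpm3 had 91332 UMIs, more than the other 8 genes together, and it was not chiefly neuronal. Its level was 305 in the female and 244 in the male barrier fibroblast-like nuclei, which held 49.8% of the UMIs in 5.99% of the nuclei. Barrier fibroblasts form the solute barrier of the meninges and nerve sheath, and 6 of their 8 markers were past 1.5-fold in this cluster of 522 nuclei, with Slc6a20a and Ranbp3l in front. Per 100 kb the level was 31.7, above that of every other member in any class.

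The nucleus at the median had a level of 256, the 10th percentile was 7.58 and the 90th was 473, so most but not all nuclei of the cluster were high. A Trpm3 UMI was in 92.7% of them, and in 90.8% after thinning, at a median depth of 2642.5 UMIs. In neuron-like nuclei the level was 9.96 in the female library, with 7.33 in the male. Barrier fibroblast-like nuclei were higher by a log2 ratio of 5.06 (5.04 to 5.09). With 20 principal components, which put 1200 nuclei in that class, the ratio was 4.26.

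Between these lay other classes. Fibroblast-like clusters 3 and 18 had 35.6 and 36.2 over both libraries, with 29.6 and 61.3 in the female and male library for cluster 3. Cerebellar granule cell-like nuclei had 28.8 and 27.8. Satellite glia-like nuclei had 14.6 and 6.43. Within this class, cluster 8 had 17.7 and 10.9, in 245 female and 244 male nuclei. The other satellite glia-like cluster, with 53 female and 515 male nuclei, had 4.11 and 4.09, so the class values also carry the different shares of the clusters.

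**Figure D3:**
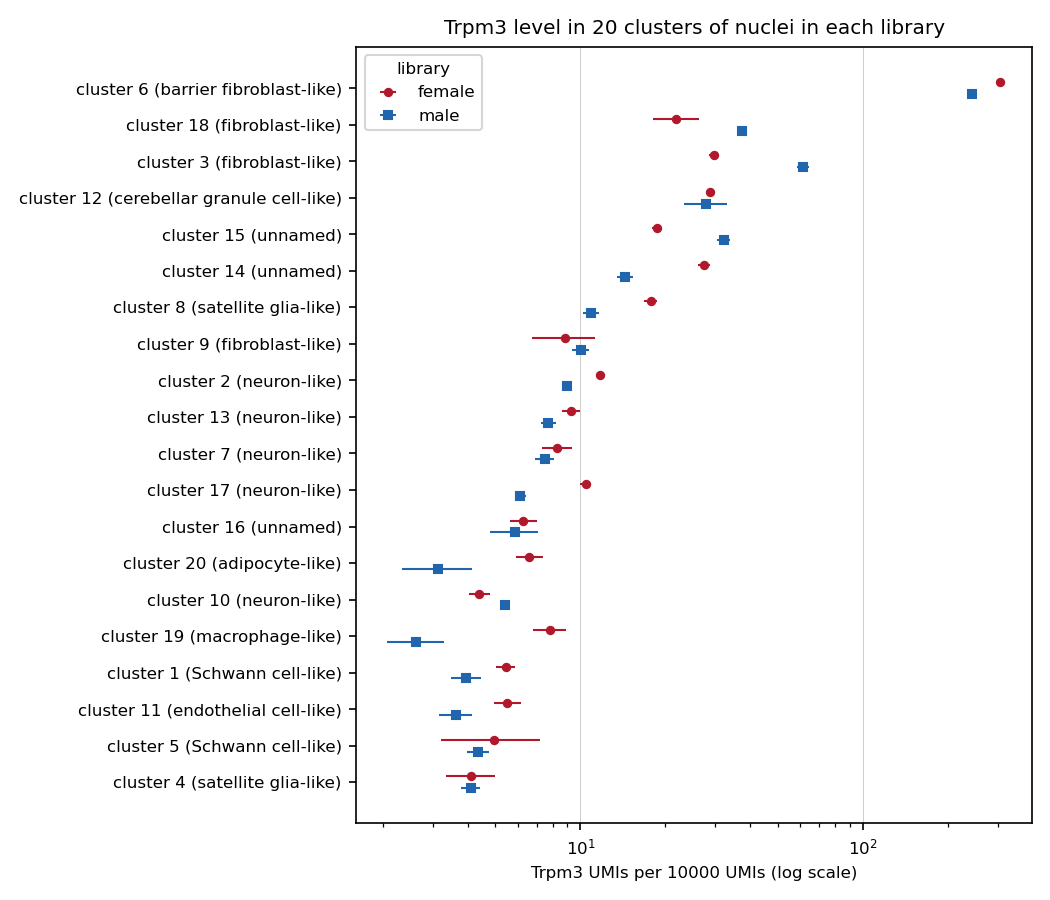
Trpm3 level in UMIs per 10000 UMIs, on a logarithmic axis, in the 20 clusters of nuclei ordered by the level over both libraries, with red circles for the female library, blue squares for the male library and bars for 95% Poisson intervals. Barrier fibroblast-like cluster 6 stands apart at 305 and 244, and the 5 neuron-like clusters lie between 5.20 and 9.89 over both libraries.

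Macrophage-like nuclei had 7.80 in the female library, with 2.63 in the male, so the neuron-like log2 ratio over this background was 0.35 in the female library, with 1.48 in the male. As a share of the barrier fibroblast-like level, Trpm3 was 1.89% in macrophage-like nuclei, where the 8 barrier markers had a median of 4.77% and 7 of 8 were above it. The markers there ran from 0.916% to 195%, so the highest of them was not particular to barrier fibroblast-like nuclei. In neuron-like nuclei Trpm3 was 2.99% and the markers had a median of 0.813%, with 2 of 8 above Trpm3. Trpm3 thus stood below most of these markers in macrophage-like nuclei and above most of them in neuron-like nuclei, on the scale of their barrier fibroblast-like level.

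Among the neurons, Trpm3 was highest in sub-cluster 8, the sub-cluster that was also highest in Trpv1 and Trpa1. Its level was 22.5 in the female library, with 16.4 in the male. A Trpm3 UMI was in 72.7% of its nuclei after thinning, against 18.8% of macrophage-like nuclei. The lowest levels were in sympathetic-like sub-cluster 9 (1.74) and jugular-like sub-cluster 10 (1.95). Jugular-like and nodose-like nuclei as a whole were close, at 10.5 and 9.84 in the female and 8.28 and 8.10 in the male library.

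Trpv2 (ENSMUSG00000018507, chr11:62574486-62600515, plus strand) encodes a channel opened by strong heat and by stretch, and is also used by immune cells. It was at 0.533 in the female and 0.587 in the male neuron-like nuclei, and at 0.366 and 0.484 in macrophage-like nuclei. The log2 ratio was 0.42 and its interval (−0.16 to 1.07) included 0. Barrier fibroblast-like nuclei had 0.387 and 0.671, which overlapped the neuron-like values, and every pair of neighbouring classes overlapped. The sub-clusters ranged from 0.241 in sub-cluster 11 to 0.762 in sub-cluster 5, and the jugular-like over nodose-like log2 ratio was 0.01 (−0.17 to 0.18).

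Trpm2 (ENSMUSG00000009292, chr10:77907722-77970563, minus strand) encodes a channel opened by ADP-ribose and oxidative stress, known in monocytes and macrophages as well as in warmth-responsive neurons. It was highest in macrophage-like nuclei, at 0.550 in the female library, with 0.276 in the male. Neuron-like nuclei had 0.133 and 0.105, lower by a log2 ratio of −1.85 (−2.46 to −1.17), on 23 macrophage-like UMIs. Both macrophage-like values were above both neuron-like values. Among the neurons, sub-cluster 8 (0.280) and sub-cluster 12 (0.229) were the highest and sub-cluster 5 (0.027) the lowest.

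Trpm7 (ENSMUSG00000027365, chr2:126791565-126876230, minus strand) encodes a channel joined to a kinase that serves magnesium balance in nearly all cells. It was seen in every class, from 3.06 in adipocyte-like and 2.28 in endothelial cell-like nuclei down to 1.32 in neuron-like nuclei. Neuron-like nuclei were the lowest class, at 1.35 and 1.30, with Schwann cell-like nuclei (1.46) overlapping them, and macrophage-like nuclei had 2.16 and 1.93. The sub-clusters ranged from 1.11 to 1.47, the narrowest range of the 9 genes relative to its level.

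Trpc1 (ENSMUSG00000032839, chr9:95705082-95750375, minus strand) encodes a subunit that joins other TRPC channels. Its neuron-like level was 0.871 in the female library, with 0.854 in the male, against 0.110 and 0.242 in macrophage-like nuclei on 3 and 7 UMIs. The log2 ratio was 2.27 (1.39 to 3.33), and Trpc1 no longer passed 2-fold in both libraries after thinning. Adipocyte-like (0.701) and cerebellar granule cell-like nuclei (0.604) were the next classes, and the first of these overlapped the neuron-like interval. The sub-clusters ranged from 0.623 to 1.09, a narrow range beside those of Trpm8 and Trpc5.

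Of 19 further TRP genes, 18 were in the table and 12 had enough UMIs to compare. Among those at least 2-fold higher in neuron-like than in macrophage-like nuclei in both libraries were Trpc4, Trpc6 and Trpc7. These are TRPC channels opened downstream of phospholipase C, like Trpc5. Trpv3, Trpv4, Trpv6 and Mcoln1 were at least 2-fold lower, and for Trpv3 and Trpv6 this rested on 1 macrophage-like UMI and on the 0.5 UMIs added to each sum. Trpv4, which responds to osmotic swelling, was at 0.006 in neuron-like and 0.231 in macrophage-like nuclei.

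Trpc4, one of the further TRP genes compared between jugular-like and nodose-like nuclei, passed 2-fold in both libraries, at 0.331 in jugular-like and 0.960 in nodose-like nuclei.

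Of 26 genes that act with TRP channels in sensory neurons, 25 had enough UMIs. The 2-fold limit over macrophage-like nuclei in both libraries was met by 7 of them, and by 9.48% of all genes compared. Those at least 2-fold higher in neuron-like than in macrophage-like nuclei in both libraries were Scn9a and Scn10a, sodium channels, P2rx3, an ATP-gated channel, Asic2, a proton-gated channel, Bdkrb2, a bradykinin receptor, Prkca, a protein kinase C, and Fgf13, a sodium channel partner. Calca, in contrast, was at 3.86 in neuron-like and 5.67 in macrophage-like nuclei, and Tac1 was at 1.83 and 1.88. Scn9a was also a marker used to name the neuron-like clusters, so its being higher there was partly set by the naming. Between jugular-like and nodose-like nuclei, 11 of the 25 passed 2-fold in both libraries, where 11.0% of all genes compared did. Calca, Calcb, Tac1, Scn11a, Asic3, Ptger3, Prkca and Tmem100 were among those higher in jugular-like nuclei, and Htr3a and Plcb4 were higher in nodose-like nuclei.

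Male and female neuron-like nuclei were then compared, with the limits of 1 library of each sex. Trpm8 alone of the 9 genes passed 1.5-fold, where 13.5% of 17505 genes did. Its level was 1.20 in the female library, with 0.606 in the male, a male over female log2 ratio of −0.98 (−1.11 to −0.86). Without sub-cluster 12 the levels were 0.241 and 0.210 and the log2 ratio was −0.20 (−0.46 to 0.06). Sub-cluster 12 made up 3.87% of female neuron-like nuclei (exact binomial interval 2.55% to 5.63%) and 2.18% of male ones (1.53% to 3.03%). These intervals treat nuclei as independent draws from 1 library of each sex. They overlapped, which does not show that the shares were alike, and a difference in share was not tested.

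Trpm3 was lower in male neuron-like nuclei by a log2 ratio of −0.44 (−0.48 to −0.40). The female value was the higher in 8 of 9 classes, in 9 of 12 sub-clusters and in 15 of 20 clusters. Fibroblast-like nuclei, at 28.1 and 28.5, were the exception among the classes, and the libraries lay in different clusters of that class. In cluster 3, with 516 female and 81 male nuclei, the levels were 29.6 and 61.3, in cluster 18, with 19 and 265 nuclei, they were 21.9 and 37.4, and in cluster 9, with 36 and 424 nuclei, they were 8.80 and 10.0, so the male value was the higher in each. Macrophage-like nuclei differed in the same direction, at 7.80 and 2.63, and the part of this in the neuronal difference was not tested. Trpm3 is in the list of sex-differing genes that was drawn from these same libraries, so these values are not independent evidence of its direction.

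Trpv1 was lower in male neuron-like nuclei by a log2 ratio of −0.15 (−0.27 to −0.03) and higher in male nuclei that were not neuron-like, at 0.44 (0.23 to 0.65). Trpa1 had −0.18 (−0.34 to −0.02) and 0.55 (0.32 to 0.78). These sums pool clusters in which the libraries have different shares, such as Schwann cell-like cluster 1 with 525 female and 184 male nuclei and cluster 5 with 20 and 520. Within the 15 clusters that were not neuron-like, the male Trpa1 level was the higher in 7, none with an interval that excluded 0. The sign of that sum was thus not that of most of its clusters. Within the 12 sub-clusters the male Trpa1 level was the higher in 8, none with such an interval. Of these, sub-clusters 9 and 12 had 0 female UMIs. Neuron-like clusters 2, 7, 13 and 17 had the sign of the neuron-like Trpa1 sum, at −0.22, −0.63, −0.78 and −0.75. Cluster 10 had 0.13. The male Trpv1 level was the higher in 9 of the 15 clusters, 2 with an interval that excluded 0, and in 5 of the 12 sub-clusters. For Trpv1 the mean over nuclei gave a log2 ratio near 0, and thinning turned the sign, so no sex difference in Trpv1 of neurons was shown. Trpv2 was higher in the male library in 8 of 9 classes and 10 of the 15 clusters, with a log2 ratio of 0.14 (−0.02 to 0.30) in neuron-like nuclei. The log2 ratios of Trpm7 (−0.05) and Trpc1 (−0.03) had intervals that included 0, as did that of Trpm2 (−0.35, on 299 neuron-like UMIs). That of Trpc5 was −0.53 (−0.92 to −0.15) on 245 neuron-like UMIs, and −1.25 in nuclei that were not neuron-like. It was 0.01 (−0.41 to 0.45) in jugular-like nuclei, −0.19 (−0.65 to 0.29) in sub-cluster 5 and −1.58 in nodose-like nuclei, on 9 male and 12 female UMIs. Of 127 female Trpc5 UMIs outside the neurons, 62 were in cluster 15, where the ratio was 0.19 (−0.63 to 0.95). Another 31 were in cerebellar granule cell-like cluster 12, with 380 female and 22 male nuclei.

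**Figure D4:**
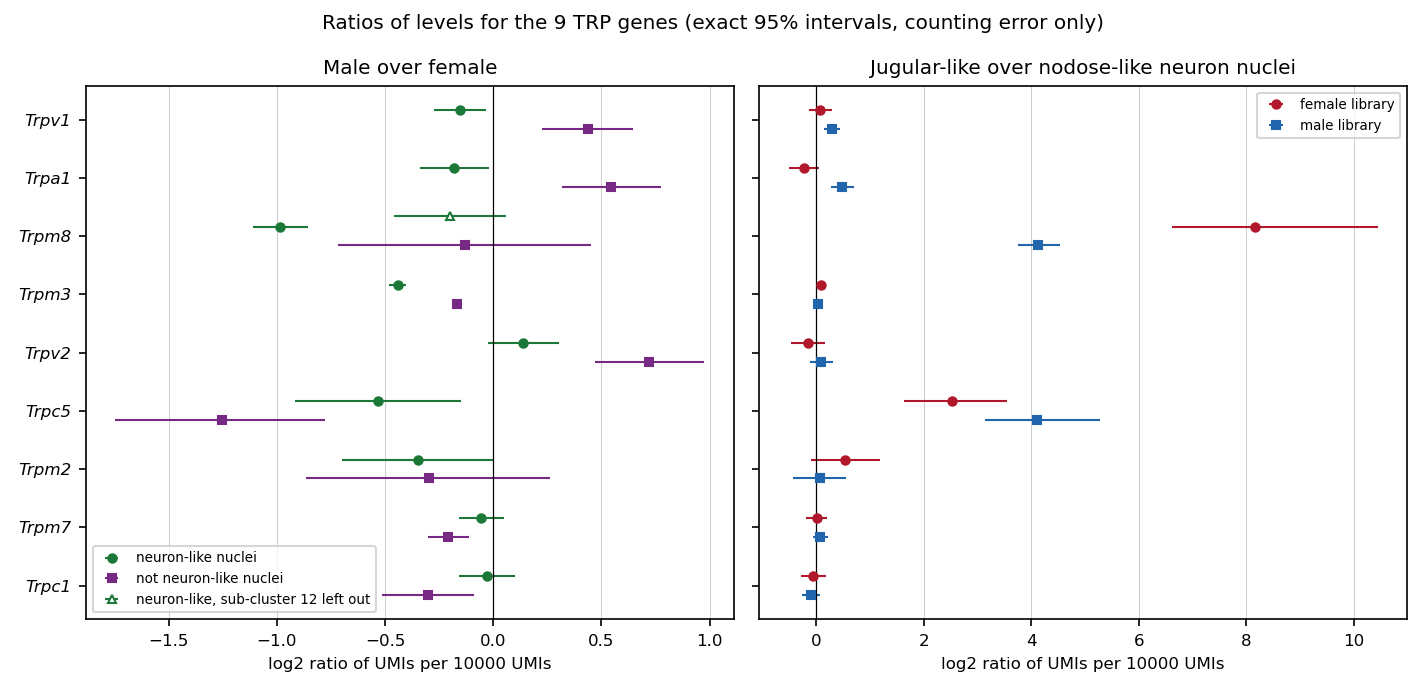
Log2 ratios of UMIs per 10000 UMIs for the 9 genes with exact 95% intervals, male over female on the left (green circles, neuron-like nuclei, purple squares, nuclei not neuron-like, open triangle, Trpm8 without sub-cluster 12) and jugular-like over nodose-like on the right (red circles, female library, blue squares, male library). On the left Trpm8 moves from −0.98 to −0.20 when sub-cluster 12 is left out, and on the right Trpm8 and Trpc5 stand apart from the other 7 genes in both libraries.

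For each member, the genes of most similar pattern were ranked over 27 groups, the clusters that were not neuron-like and the sub-clusters of neuron-like nuclei, among 13421 genes with at least 200 UMIs. The groups share 2 libraries and differ in depth, so the correlations are descriptive. Trpm8 was closest to Gpr26 (r = 0.93), Gsg1l (0.90) and Plcd4 (0.84), and Trpv1 to Adcyap1 (0.78), which encodes the neuropeptide PACAP, Mpped1 (0.76) and Pde4c (0.75). Trpm3 was closest to Gm27151 (0.89), a gene on the opposite strand within it, 4930594M22Rik (0.88) and Ranbp3l (0.87), a marker used to name barrier fibroblasts.

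Trpc5 was closest to Patj (0.83), Rtl4 (0.83), which lies 0.726 kb from it on the opposite strand, and Kcnk12 (0.72). Trpc1 followed Gm14827 (0.91), Ctnna2 (0.90) and Akap6 (0.89), and Trpm7 followed Pds5a (0.92), Ccnl2 (0.91) and Cdk12 (0.90). Trpa1 came nearest to Gpr161, AI413582 and Mapk3 (each 0.75), Trpv2 to Gprin2 (0.79), Sox11 (0.78) and Tmem132e (0.78), and Trpm2 to Bin1 (0.83), D1Ertd622e (0.81) and Myo5a (0.80). Trpm8, Trpm3 and Trpc5 overlap genes on the opposite strand, which had 36 UMIs for the gene in Trpm8, 833 and 589 for those in Trpm3 and 11 for the gene in Trpc5, and a small part of their counts is uncertain for that reason.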

How the data were processed

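Single-nucleus RNA libraries (Chromium 3' v3.1) of 1 female and 1 male pool were used. The deposited matrix holds whole-number UMI counts of genes in nuclei, which the authors made with Cell Ranger 7.1.0 on mm10 with a transgene sequence added and introns included. They kept barcodes with a DIEM debris score under 0.5, over 250 genes and over 1000 UMIs by their methods (the lowest nucleus held 980), removed possible doublets, and merged both libraries by cellranger aggr with scaling to equal read depth, so the counts are not all that were sequenced. No doublet caller was run here. Neither the strand setting nor the handling of reads shared by overlapping genes is given in the sources here.

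Barcode suffixes were read as sexes, since each suffix has as many nuclei as the study states for that sex. Female and male totals were 13424 and 7 UMIs for Xist, and 12 and 1789 UMIs for Ddx3y.

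Clusters were formed from 23459 genes, leaving out all TRP genes, the study's sex list and Xist, Tsix, Ddx3y, Uty, Kdm5d and Eif2s3y. Other sex-linked genes outside that list stayed in. The settings were 10 principal components, 243 neighbours and Louvain resolution 3.0 (igraph 0.11.9, scikit-learn 1.9.0, python 3.11.15, numpy 2.4.6), giving 20 clusters. The 2273 neuron-like nuclei were sub-clustered with 20 components, 20 neighbours and resolution 1.0, giving 12. A name needed at least 3 markers, each with at least 10 UMIs, past 1.5-fold, limits chosen once the clusters were known. A sub-cluster also stayed unnamed where 2 or more markers of another kind passed, except nodose markers beside sympathetic ones. The same held where a pituitary marker or haemoglobin gene was among its leading genes. The clusters 14, 15 and 16, with 1024 nuclei, and 3 sub-clusters stayed unnamed. The pituitary list named no cluster, since genes of other cells led the cluster it was highest in.

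Ratios carry exact conditional binomial intervals and levels exact Poisson ones at 95% (scipy 1.17.1). For counts of genes, 0.5 UMIs were added to each sum and at least 20 UMIs were needed. A count of 0 was bounded at 3 UMIs. The functions were tested on simulated data. Gene positions are those of GENCODE M21, which held 32235 of 32286 feature IDs. The members, marker lists and gene lists were chosen with earlier results of these data known. All 9 members were named, and genes of the 2 pathway lists where they passed 2-fold over macrophage-like nuclei in both libraries. Jugular-like and nodose-like calls were also named, as were Calca, Tac1, Pirt, Tmem100, Hjurp, Trpv4 and the neighbours of members, after their values were seen. Alternatives were other clusterings, nuclei over 2000 UMIs, thinning to 1000 UMIs, the mean over nuclei, another background class, a 1.5-fold limit, leaving out the top 1% of nuclei, and each library alone. The other clusterings changed the clusters of all nuclei and kept the settings of the sub-clustering. Some genes that met these rules are not reported here.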

Additional observations from a re-analysis of the deposited data

Results flagged for a closer look

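The values in this section are male over female, or jugular-like over nodose-like, log2 ratios of UMIs per 10000 UMIs that went in opposite directions in both groups compared. With 1 library of each sex none of these differences was tested. For Trpv1 the male over female ratio was −0.15 in neuron-like nuclei and 0.44 in nuclei that were not neuron-like, and the male level was the higher in 7 of 8 classes other than neuron-like. For Trpa1 the same ratios were −0.18 and 0.55, with the male level higher in 5 of 8 classes. The libraries have different shares of the clusters of a class. Within the Schwann cell-like class Trpa1 was at 0.72, but at −0.46 in cluster 1 (525 female and 184 male nuclei) and −0.17 in cluster 5 (20 and 520). Over the 15 clusters that were not neuron-like the male level was higher in 7 for Trpa1 and in 9 for Trpv1, and over the 12 sub-clusters in 8 and 5. For Trpa1 none of those 8 sub-clusters had an interval that excluded 0. Neuron-like clusters 2, 7, 13 and 17 were negative for Trpa1, and cluster 10 was at 0.13. Over these classes the 8 neuronal genes that gauge free RNA also differed between the libraries, with a macrophage-like level at a median of 40.6% (female) and 78.9% (male) of the neuron-like level. The part of this in the ratios was not tested.

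The jugular-like over nodose-like ratio of Trpa1 was −0.24 for female and 0.48 for male nuclei. That of Trpv2 was −0.15 in the female library, with 0.0936 in the male, and both of its intervals included 0.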

How the results depend on the processing

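Of 87 alternatives run, 62 kept the direction and size of the result, 21 moved it and 4 turned its direction. All values are log2 ratios unless called counts. With nuclei over 2000 UMIs, Trpv1 in neuron-like over macrophage-like nuclei was 2.53, Trpm3 in barrier fibroblast-like over neuron-like nuclei was 5.10, and 5 members (Trpv1, Trpa1, Trpm8, Trpc5 and Trpc1) were at least 2-fold higher in neuron-like nuclei. The Trpm3 ratio was 4.26 with 20 principal components, which put 1200 nuclei in place of 522 in the barrier fibroblast-like class, 4.97 without the sympathetic-like sub-cluster and 4.94 in the female library alone. The count of members was 1 (Trpm8) after thinning, 4 (Trpm8, Trpv2, Trpm2 and Trpc1) with endothelial cell-like nuclei as background and 5 at a 1.5-fold limit. It was 3 (Trpv1, Trpm8 and Trpc1) without the sympathetic-like sub-cluster. The share of all genes at these other settings is not given here, so the changes in count are not shown to be particular to the members. For jugular-like over nodose-like nuclei, Trpa1 turned to −0.53 after thinning, −0.0614 for the mean over nuclei and −0.24 in the female library, and was 0.48 in the male library. Trpv1 was 0.38 at the finer resolution, 0.36 without the deepest 1% of nuclei, 0.37 for the mean over nuclei and 0.0735 in the female library. Male over female in neuron-like nuclei, Trpv1 turned to 0.0903 after thinning and was −0.0045 for the mean over nuclei, and Trpm3 was −0.36 after thinning, −0.31 for the mean over nuclei and −0.34 without the sympathetic-like sub-cluster. The cause of these shifts was not tested beyond the class size given. Leaving the genes beside or within the members out of the clustering kept all 61 nuclei of the Trpm8-led sub-cluster. This alternative and those without the unnamed, the sympathetic-like or the Trpm8-led sub-clusters were chosen after seeing the data. Depth and free RNA both limit the background. Macrophage-like nuclei held 562432 UMIs and 1 to 24 UMIs of each member except Trpm3 and Trpm7. No paired analysis was possible because each sex is 1 pooled library, so the groups share fewer than 2 replicate numbers.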

Other observations

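Trpc4, Trpc6 and Trpc7 differed in the sub-cluster where they were highest, given here as values with no test. Trpc6 was highest in sub-cluster 5 (1.35 UMIs per 10000 over both libraries). Trpc4 was highest in nodose-like sub-clusters 2 and 6 (1.25 and 1.12). Trpc7 was highest in sympathetic-like sub-cluster 9 (0.586) and jugular-like sub-cluster 8 (0.578).

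In sub-cluster 12, the Trpm8-led sub-cluster, genes of sensory neurons chosen after their values were seen had unlike levels. Scn10a, a sodium channel, was at 0.621, with the other sub-clusters from 0.461 to 16.1, and P2rx3 was at 0.180, with the others from 0.133 to 2.22. Calca was at 2.24, with the others from 1.08 to 19.8, and Trpv1 at 2.37 was the second highest of the 12. Of its 61 nuclei, 24 had a Trpv1 UMI, 51 a Trpm8 UMI and 17 both. Trpm8 was seen in 70.8% of the nuclei with Trpv1 and in 91.9% of those without it, at median depths of 9659 and 7208 UMIs. The high Trpv1 level of this sub-cluster thus does not show that the same nuclei used both genes.

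Genes beside or within Trpm8 were also high in this sub-cluster. Hjurp had 731 of its 3018 UMIs there, and 4930453O03Rik, within Trpm8 on the opposite strand, had 28 of 36. Within Trpm3 on the opposite strand, Gm27151 had 411 of 833 UMIs in barrier fibroblast-like nuclei.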
